A study of Saccharomyces cerevisiae with 18 samples.

Results

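Inositol and phospholipid synthesis in the budding yeast Saccharomyces cerevisiae was followed through 10 genes: INO1, ITR1, CHO1, PSD1, CHO2, OPI3, CKI1 and the regulators INO2, INO4 and OPI1. The genes were taken by name from the annotation of an expression array, on which each had 1 probe set, out of 5449 measured genes. RNA had been collected from cells of 3 genotypes: SWI6 wild type, a swi6 deletant and a mutant (C404A) with 1 cysteine of Swi6 replaced by alanine. Swi6 is a subunit of the transcription factors SBF and MBF, which drive gene expression at the start of the cell cycle. Each genotype was sampled as an untreated control and after 45 min in 30 µM linoleic acid hydroperoxide (LoaOOH), an oxidised fatty acid that stresses cells. Each of these 6 groups had 3 arrays. All cultures grew in synthetic medium without leucine. The sources used here do not give the inositol or choline content of that medium, the strain background, how the C404A allele was carried or whether controls were mock treated. No label ties the replicates to separate cultures, and p-values therefore measure a spread between arrays that may be technical.

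Yeast makes inositol from glucose 6-phosphate through Ino1, or imports it through transporters such as Itr1. Phosphatidylserine, made by Cho1, is decarboxylated to phosphatidylethanolamine by Psd1 and then methylated to phosphatidylcholine by Cho2 and Opi3, while Cki1 starts the parallel route that uses choline. Many of these genes carry a promoter element bound by the Ino2-Ino4 heterodimer. Opi1 represses them when inositol is plentiful, and is held outside the nucleus at the endoplasmic reticulum when phosphatidic acid is abundant. INO1 is known as the most strongly regulated gene of the set.

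Values are log2 signals as deposited, and a difference of 1 is a 2-fold difference. The array medians over the measured genes lay between 10.56 and 10.64. SWI6 signal was 3.45 ± 0.251 in deletant control cells and 3.7 ± 0.603 in deletant LoaOOH cells (SD, n = 3), below the background level of 4.52, and its means lay from 10.23 to 10.54 in the other groups, so the deletant labels held. The SWI6 level cannot check the C404A label, since that mutant still makes the transcript. The alpha-factor receptor gene STE2, a marker of a cells, had group means of 13.55 to 13.80 and the a-factor receptor gene STE3, a marker of alpha cells, of 7.85 to 8.09. The other mating-type markers differed from wild type in part. The alpha-factor gene MF(ALPHA)1 was higher by 1.70 in deletant controls (limma adjusted p = 3.9e-05) and by 0.72 in C404A controls (0.0477), with group means of 5.59 to 7.29. In the C404A mutant, averaged over both conditions, the a-cell genes BAR1 and MFA1 were lower, at -0.31 (0.0122) and -0.46 (0.0219). Their part in the results was not tested. Of the 259 genes of chromosome V, 256 were higher than wild type in deletant controls and 253 in C404A controls. The median differences were 0.76 and 0.70. Of the 10 genes, CHO1 lies on chromosome V. Each signal is an average over a culture, so a change in every cell and a change in part of the cells cannot be told apart.

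The arrays labelled C404A replicate 2 stood apart from the rest. In the mean of the wild type and deletant responses, 565 genes rose and 690 fell, with the 10 genes left out. Between the control and LoaOOH arrays of the same replicate number, 540 to 565 of the first set were higher and 647 to 690 of the second were lower in the 8 other pairs. In the pair labelled C404A replicate 2 the counts were 63 and 84. A LoaOOH score was taken as the mean difference from wild type control cells over these genes, with the sign of the falling ones turned. It was 0.178 in the array labelled control and 0.079 in the array labelled LoaOOH, against -0.067 to 0.087 in the other controls and 0.267 to 0.415 in the other LoaOOH arrays. The wild type and deletant pairs had been used to choose these genes, so of the 8 other pairs only those of C404A replicates 1 and 3, with 547 and 549 higher and 664 and 647 lower, were free of that choice. The labels were kept, and for INO1, OPI3, CHO1, CKI1 and INO2 the C404A results are given with and without these arrays. This pair was singled out because it lacked the LoaOOH response of the others. Leaving it out can thus raise LoaOOH responses and lower the shared spread partly by construction. Calls gained in that way, here and below, are no independent support for a response.

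INO1 had the widest range of the 10 genes, 3.88 on the log2 scale from its lowest to its highest array. Its signals in deletant control cells were 9.18, 9.42 and 9.24, lower than in any other array. In C404A control cells they were 10.45, 11.40 and 10.79, and in wild type control cells 12.03, 11.70 and 10.24. The replicate 3 array of wild type thus lay below all C404A controls, while its replicates 1 and 2 lay above them. After LoaOOH the signals were 12.29, 10.95 and 12.17 in deletant cells, 12.80, 11.06 and 13.00 in C404A cells and 13.06, 12.37 and 12.91 in wild type. In order, the group means were 9.28 ± 0.126 in deletant control, 10.88 ± 0.48 in C404A control, 11.33 ± 0.952 in wild type control, 11.80 ± 0.74 in deletant LoaOOH, 12.29 ± 1.06 in C404A LoaOOH and 12.78 ± 0.361 in wild type LoaOOH cells (SD, n = 3). Of these neighbours the arrays of deletant control and C404A control cells did not overlap, and all later neighbours in the order overlapped. How many of all genes show no overlap between groups of 3 arrays was not counted. Statements on overlap, here and below, thus describe the arrays and have no background share. The pooled SD within groups was 0.703, larger than that of 99.7% of all genes, so differences of INO1 carry wide errors.

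**Figure D1:**
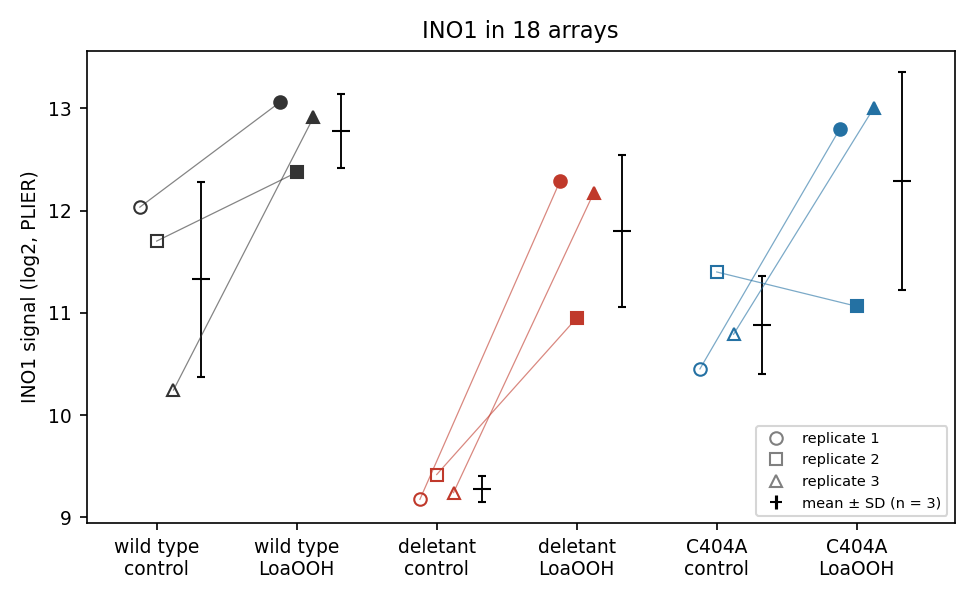
INO1 signal (log2) in each of the 18 arrays by group, with lines joining control and LoaOOH arrays of the same replicate number and bars giving mean ± SD (n = 3). The deletant controls sit between 9.18 and 9.42, below all other arrays, and the line of C404A replicate 2 runs down from 11.40 to 11.06.

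LoaOOH raised INO1 averaged over the 3 genotypes. The mean response was 1.80 ± 0.3 on the log2 scale (SE from limma over 18 arrays), a 3.47-fold rise with an adjusted p of 0.0015, and INO1 was higher after LoaOOH in 8 of 9 pairs of arrays with the same replicate number. The exception, at -0.34, was the pair labelled C404A replicate 2. Without both of its arrays the mean response was 2.09 ± 0.26 (limma adjusted p = 0.000101). By genotype, the deletant response of 2.52 ± 0.519, or 5.75-fold, passed the test (adjusted p = 0.0281). The wild type response of 1.46 ± 0.519 (adjusted p = 0.135) and the C404A response of 1.41 ± 0.519 (adjusted p = 0.793) did not. Without the arrays labelled C404A replicate 2, the C404A response was 2.28 ± 0.51 (adjusted p = 0.0306), and the wild type response, of the same size, had an SE of 0.416 (adjusted p = 0.0477). The number of all genes called in the wild type response went from 14 to 479 in the same step. The deletant call was lost without any single deletant array (adjusted p from 0.0612 to 0.127).

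The responses of INO1 were not shown to differ between genotypes. The deletant response exceeded that of wild type by 1.07 with a 95% interval of -0.50 to 2.63, and the C404A response differed from it by -0.05, with an interval of -1.61 to 1.52 (limma adjusted p = 0.9998 for each). No gene of the 5449 passed in either comparison, so 0% is the background. Of the 10 genes 0 had an unadjusted p under 0.05 there. Without the arrays labelled C404A replicate 2, the C404A difference for INO1 was 0.82 ± 0.658.

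Before treatment, INO1 was lower in the deletant than in wild type. It fell by 2.05 ± 0.519, or 4.14-fold (limma adjusted p = 0.0185), with no overlap between the arrays. After LoaOOH the arrays of these genotypes again did not overlap, and the difference was -0.98 ± 0.519 (adjusted p = 0.289). Averaged over both conditions INO1 was lower in the deletant by -1.51 ± 0.367, or 2.86-fold (adjusted p = 0.0078). The averaged difference had an adjusted p of 0.0555 with genotype and replicate number as a random block. For untreated cells the call was lost when replicate 1 (-1.69, adjusted p = 0.104) or replicate 2 (-1.86, 0.074) of the wild type controls was left out, or replicate 1 or 3 of the deletant controls (0.0548 for each). The C404A mutant had -0.45 ± 0.519 against wild type when untreated (adjusted p = 0.622), and -0.49 ± 0.519 under LoaOOH (adjusted p = 0.61), with overlapping arrays each time. Without the arrays labelled C404A replicate 2 these differences were -0.71 ± 0.466 and 0.12 ± 0.466. Set against the deletant, untreated C404A cells had 1.60 ± 0.519 more INO1 signal, with no overlap of arrays (adjusted p = 0.169), and 1.34 ± 0.466 without the arrays labelled C404A replicate 2 (0.199).

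ITR1, the myo-inositol transporter gene, stayed within 0.44 on the log2 scale over all 18 arrays. Its signals ran from 13.55 in deletant LoaOOH replicate 2 to 13.99 in C404A LoaOOH replicate 1. No comparison passed for it, and its mean response to LoaOOH was 0.06 with a 95% interval of -0.04 to 0.17.

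In the route from phosphatidylserine to phosphatidylcholine, OPI3, the methyltransferase gene of its last steps, was the member that rose after LoaOOH. Its control signals were 13.67, 13.76 and 13.69 in wild type and 13.72, 13.71 and 13.53 in the deletant. After LoaOOH they were 14.01, 13.91 and 14.05 in wild type and 14.07, 13.90 and 14.08 in the deletant, above all controls of the same genotype. In the C404A mutant the signals went from 13.65, 13.84 and 13.60 to 14.04, 13.80 and 14.07, and here the groups overlapped through replicate 2. The mean response was 0.31 ± 0.0502, or 1.24-fold (limma adjusted p = 0.00141), with 8 of 9 same-number pairs higher, and the deletant response alone was 0.36 ± 0.0869 (adjusted p = 0.0381). The wild type response was 0.29 ± 0.0869 (adjusted p = 0.0862) and that of the C404A mutant 0.27 ± 0.0869 (adjusted p = 0.793). Without the arrays labelled C404A replicate 2, OPI3 passed in each genotype, at adjusted p = 0.0187 for C404A, 0.0205 for wild type and 0.00634 for deletant cells. With genotype and replicate number as a random block, the wild type response of OPI3 passed (adjusted p = 0.033). The deletant call was lost when any 1 deletant array was left out, and likewise for replicates 2 and 3 of the wild type controls and replicates 1 and 3 of wild type LoaOOH (adjusted p from 0.0509 to 0.147). The differences of OPI3 between mutants and wild type ran from -0.05 to 0.02 by condition, and none passed.

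CHO2, which encodes the first methyltransferase, and PSD1, the mitochondrial decarboxylase gene, did not pass in any comparison. CHO2 was at 13.53, 13.53 and 13.53 in wild type controls and at 13.69, 13.54 and 13.68 after LoaOOH. Its mean response of 0.12 (95% interval 0.02 to 0.21) had an adjusted p of 0.0665. It passed without the arrays labelled C404A replicate 2 (0.14, adjusted p = 0.0169) and with the random block (0.0159). PSD1 ranged from 11.18 to 11.74 over the 18 arrays, with a mean response of 0.06 and an interval of -0.10 to 0.22.

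CHO1, the phosphatidylserine synthase gene on chromosome V, separated the mutants from wild type in both conditions. Its wild type signals were 12.27, 12.43 and 12.27 in control cells and 12.55, 12.41 and 12.52 after LoaOOH. In the deletant they were 13.03, 13.06 and 12.83 and then 13.02, 12.94 and 13.18, and in the C404A mutant 13.04, 13.00 and 12.98 and then 13.30, 13.02 and 13.25. All 12 mutant arrays thus lay above all 6 wild type arrays. Averaged over both conditions CHO1 was higher by 0.60 ± 0.0621, or 1.52-fold, in the deletant (limma adjusted p = 2.8e-06) and by 0.69 ± 0.0621, or 1.61-fold, in the C404A mutant (adjusted p = 7.22e-07). The C404A difference was 0.74 ± 0.0631 without the arrays labelled C404A replicate 2 (adjusted p = 2.64e-06). The medians over chromosome V in the same comparisons were 0.77 and 0.72, and 33.2% and 45.6% of its 259 genes differed by less than CHO1. With the median shift of chromosome V removed from each array, no call was left. CHO1 then differed from wild type by -0.17 in deletant cells (limma adjusted p = 0.0881) and by -0.05 in the C404A mutant (0.634). The negative signs follow from CHO1 lying below the chromosome V medians. The response of CHO1 to LoaOOH averaged 0.14 (adjusted p = 0.0608), and 0.17 without the arrays labelled C404A replicate 2 (adjusted p = 0.0233), and the block gave it an adjusted p of 0.0272.

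CKI1, the choline kinase gene, had lower means in both mutants. Its wild type signals were 10.73, 10.68 and 10.43 in control cells and 11.01, 10.68 and 10.64 after LoaOOH, and in the deletant they were 10.43, 10.40 and 10.48 and then 10.50, 10.34 and 10.57. The arrays overlapped in control cells and not after LoaOOH. Averaged over both conditions the deletant differed by -0.24 ± 0.0895 (limma adjusted p = 0.0678), and by the same amount with adjusted p = 0.0342 without the arrays labelled C404A replicate 2. The C404A mutant differed by -0.21 ± 0.0895 (adjusted p = 0.101), and by -0.12 ± 0.0842 without those arrays (0.335).

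**Figure D2:**
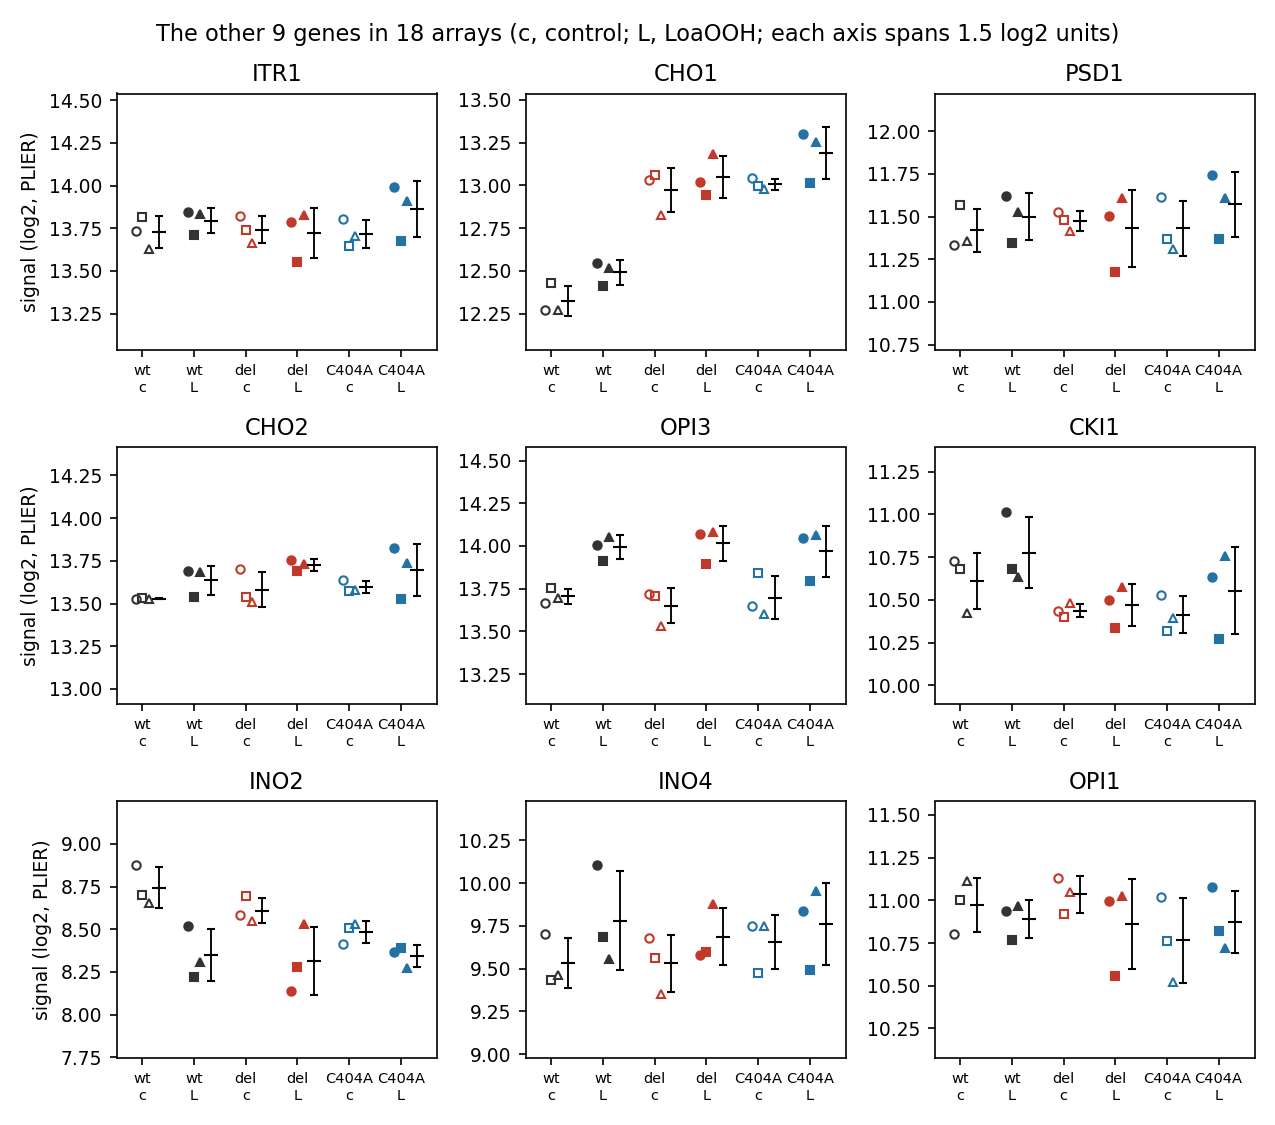
Log2 signals of the other 9 genes in each array by group (circles, squares and triangles for replicates 1, 2 and 3; bars, mean ± SD, n = 3), on axes of equal span. CHO1 lies from 12.83 to 13.30 in the mutants and from 12.27 to 12.55 in wild type. OPI3 is higher after LoaOOH in all pairs but 1, and INO2 lower in all 9.

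Among the regulators, INO2, which encodes the activator subunit that carries the activation domain, fell after LoaOOH while INO1 rose. Its signals went from 8.88, 8.70 and 8.65 to 8.52, 8.22 and 8.31 in wild type, and from 8.58, 8.69 and 8.55 to 8.14, 8.28 and 8.53 in the deletant. In the C404A mutant they went from 8.41, 8.51 and 8.53 to 8.37, 8.39 and 8.27. Control and LoaOOH arrays did not overlap in any genotype. INO2 was lower after LoaOOH in 9 of 9 same-number pairs, the pair labelled C404A replicate 2 included (-0.11). The share of all genes that do the same was not counted. The mean response was -0.28 ± 0.0568, a 1.21-fold fall (limma adjusted p = 0.00385), and it was -0.28 without that pair as well (adjusted p = 0.006). By genotype the differences were -0.40 ± 0.0984 in wild type (adjusted p = 0.0589), -0.29 in deletant cells (0.0988) and -0.14 in C404A cells (0.846). With the random block, wild type and deletant passed at adjusted p = 0.014 and 0.0251. In untreated cells INO2 differed from wild type by -0.26 in the C404A mutant, with no overlap of arrays (adjusted p = 0.12), and by -0.13 in the deletant (adjusted p = 0.471). The C404A values of INO2 without the arrays labelled C404A replicate 2 were -0.15 for the response (0.583) and -0.27 for untreated cells (0.177).

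INO4, which encodes the partner of Ino2, and OPI1, the repressor gene, passed in no comparison. INO4 ran from 9.35 to 10.11 over the 18 arrays, with a mean response of 0.17 (95% interval -0.02 to 0.36). OPI1 ran from 10.52 to 11.13, with a mean response of -0.05 and an interval of -0.23 to 0.13.

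Counted over the 10 genes, the mean response to LoaOOH held 2 that rose, INO1 and OPI3, and 1 that fell, INO2, where 9.56% of all genes rose and 11.5% fell (21% in all). The median of the 10 mean responses was 0.11, and that of all genes 0.0009. In the wild type response 0 of 10 passed (background 0.257%), in that of deletant cells 2 (3.56%) and in that of C404A cells 0 (0%), with 3, 3 and 2 at an unadjusted p under 0.05. Without the arrays labelled C404A replicate 2, the counts of the 10 genes that passed were 3, 2 and 2. Over all genes 479, 535 and 217 passed in that fit. In untreated cells 2 of 10 differed between deletant and wild type, INO1 and CHO1 (10.1% of all genes), and 1 between the C404A mutant and wild type, CHO1 (8.24%). After LoaOOH CHO1 alone passed in each mutant, against 10.4% and 7.38% of all genes. Averaged over both conditions 2 of 10 differed in deletant cells (22.6%) and 1 in C404A cells (23.1%). Between the mutants 0 passed in control cells (1.8%) and 0 after LoaOOH (1.45%), with 1 and 0 at an unadjusted p under 0.05.

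**Figure D3:**
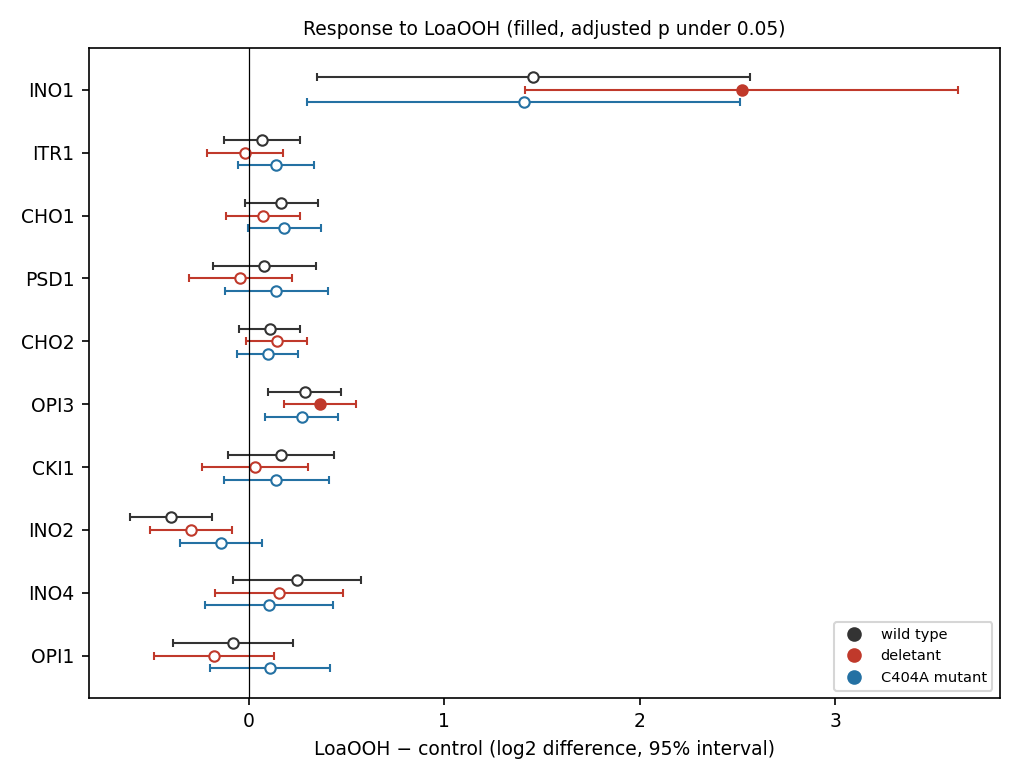
Log2 difference between LoaOOH and control for each gene in each genotype (points) with 95% intervals from the limma model, filled where the adjusted p is under 0.05. INO1 has the largest differences and the widest intervals, and the filled points are INO1 (2.52) and OPI3 (0.36) in the deletant.

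**Figure D4:**
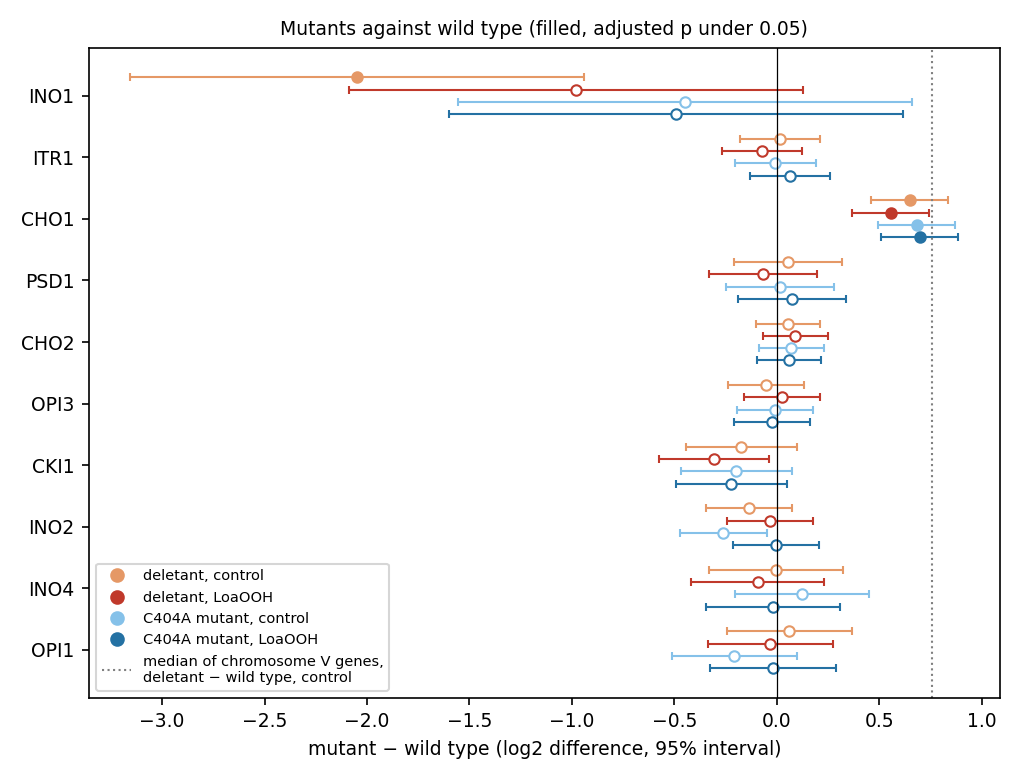
Log2 difference between each mutant and wild type, in control and LoaOOH cells, with 95% intervals, filled where the adjusted p is under 0.05; the dotted line is the median over chromosome V genes (0.76, deletant against wild type, control). CHO1 is filled in all 4 comparisons near that line, and INO1 is filled in untreated deletant cells (-2.05).

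INO1 signal followed the LoaOOH score over the 18 arrays, with Pearson r = 0.783 and Spearman rho = 0.759, which describe arrays that share treatment groups. The score genes were chosen by their response to LoaOOH in the wild type and deletant arrays. A correlation with any gene that responds to LoaOOH is thus partly built in. In the pair labelled C404A replicate 2, the control array had a score between the other controls and the LoaOOH arrays with INO1 at 11.40, and the LoaOOH array had a score within the controls with INO1 at 11.06. At control scores near 0, however, INO1 ranged from 9.18 in the deletant to 12.03 in wild type.

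**Figure D5:**
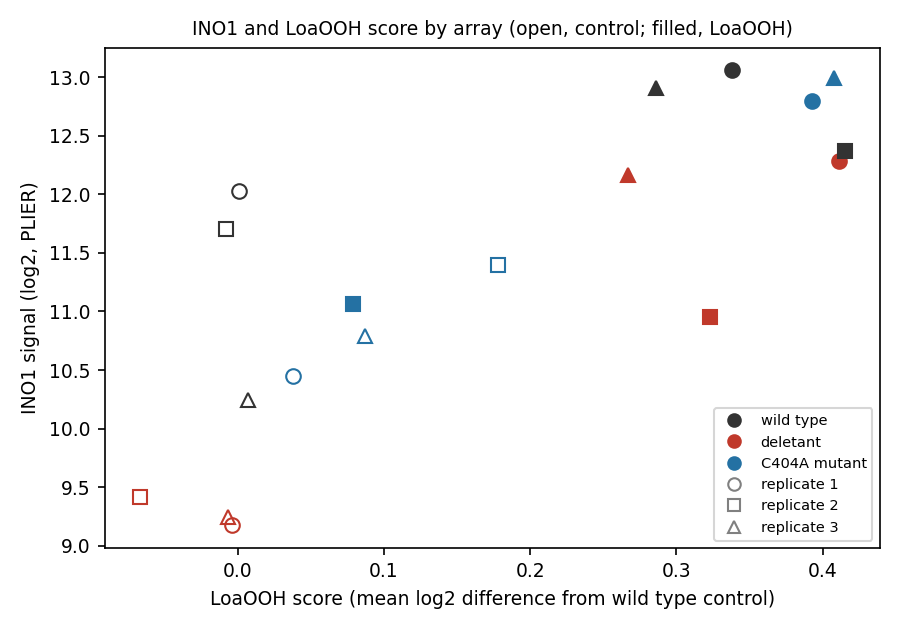
INO1 signal (log2) against the LoaOOH score of each array (open, control; filled, LoaOOH; circles, squares and triangles for replicates 1, 2 and 3). At scores between -0.067 and 0.007 the deletant controls lie at 9.18 to 9.42 and the wild type controls at 10.24 to 12.03.

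The 5 genes whose signal was most like that of INO1 over the 18 arrays were RBK1, YNL208W, UGA2, YDL124W and AMS1, by Pearson correlation among 5448 other genes. RBK1, which encodes a ribokinase, had r = 0.932 and stayed among the first 5 in 20 of 20 repeats with arrays left out or quantile normalization. YNL208W (r = 0.893), UGA2, the succinate semialdehyde dehydrogenase gene (0.89), YDL124W (0.883) and AMS1, the vacuolar alpha-mannosidase gene (0.878), did so in 17, 16, 13 and 7. RBK1 changed far less than INO1, from 11.53 ± 0.0203 in deletant control to 11.86 ± 0.0175 in wild type LoaOOH cells (SD, n = 3). Of the 10 genes, OPI3 ranked 48th (r = 0.806) and CKI1 285th (0.664), while INO2 had r = -0.411.

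Within groups, several of the 10 genes deviated together with ITR1 from array to array. After subtraction of group means, ITR1 correlated with PSD1 at r = 0.926, with CHO1 at 0.86, with CHO2 at 0.811, with CKI1 at 0.731 and with INO1 at 0.691. PSD1 ranked first, CHO1 4th and CHO2 12th among the 5448 other genes, whose median r with ITR1 was -0.017 and whose 95th percentile was 0.522. OPI3 (0.651) and the regulators INO4 (0.581) and OPI1 (0.563) also lay above that percentile, and INO2 (0.141) did not. ITR1 is 1 of 10 possible references, and other pairs were less alike. With INO1, r was 0.236 for INO2, 0.418 for INO4 and 0.088 for OPI1. Among the regulators it was 0.511 for INO2 with INO4, 0.048 for INO4 with OPI1 and -0.091 for INO2 with OPI1. These 18 arrays share 6 group means and 3 replicate numbers. After LoaOOH the replicate 2 array was the lowest of 3 in every genotype for 6 of the 10 genes, INO1, ITR1, CHO1, PSD1, CHO2 and OPI3, as for 2.64% of all genes. In the controls this was so for 0 of the 10 genes and 4.02% of all genes. What set the replicate 2 arrays apart was not tested.

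Other genes of the pathway were followed in 3 lists. Of 20 further phospholipid synthesis genes, 1 rose and 2 fell in the mean response to LoaOOH, against 9.56% and 11.5% of all genes. The acyltransferase gene GPT2 rose by 0.24 ± 0.0602 (limma adjusted p = 0.0118), the phosphatase gene GEP4 of the cardiolipin route fell by 0.22 ± 0.0611 (0.0178), and ECT1, of the ethanolamine route, fell by 0.16 ± 0.0451 (0.0224). The median of the list was -0.007. In untreated deletant cells 2 of the 20 were higher and 0 lower, where 10.1% of all genes passed. PIS1, the phosphatidylinositol synthase gene, which joins inositol to a phospholipid, was higher by 0.23 ± 0.0556 (adjusted p = 0.0123) in these cells, where INO1 was lower, and by 0.31 ± 0.0556 after LoaOOH (0.00151). PIS1 signals ran from 13.12 to 13.20 in deletant and from 12.85 to 13.00 in wild type controls, with no overlap. CRD1, the cardiolipin synthase gene, was higher by 0.30 ± 0.0798 in deletant controls (0.0266). After LoaOOH 2 of the 20 passed in the deletant, and 3 averaged over both conditions, all higher (10.4% and 22.6% of all genes). In C404A cells 0 of the 20 passed by limma, untreated or after LoaOOH (8.24% and 7.38% of all genes). At an unadjusted p under 0.05 there were 2 and 3. Without the arrays labelled C404A replicate 2, 1 passed in untreated cells, where 403 of all 5449 genes passed. In the C404A mutant 2 of the 20 passed when both conditions were averaged, where 23.1% of all genes passed. These were CRD1 at 0.22 (limma adjusted p = 0.0133) and the phosphatidate phosphatase gene PAH1 at -0.21 (0.0198). Without the arrays labelled C404A replicate 2 the count was 3, and the share of all genes in that fit is not given here.

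Of 12 genes of inositol and choline uptake and phospholipid turnover, 1 fell in the mean response and 0 rose, against 11.5% and 9.56% of all genes. This was PLB2, a phospholipase B gene, at -0.86 ± 0.186, or 1.81-fold (limma adjusted p = 0.00516). PLB2 signals went from 9.97 to 10.50 in wild type controls to 8.75 to 9.50 after LoaOOH. Averaged over both conditions 3 of the 12 passed in the deletant (22.6% of all genes), all lower than in wild type, GDE1, a glycerophosphocholine phosphodiesterase gene, at -0.31 (0.017), ITR2, the second inositol transporter gene, at -0.22 (0.00584), and PLC1, the phospholipase C gene, at -0.21 (0.0101). In the C404A mutant 1 of the 12 passed (23.1% of all genes), PLC1 at -0.18 (0.0225). HNM1, the choline transporter gene, had group means of 12.51 to 12.66 and passed in no comparison.

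Of 15 genes that act on INO1 expression, 2 rose in the mean response, against 9.56% of all genes. The inositol polyphosphate kinase gene IPK1 rose by 0.32 ± 0.0711 (limma adjusted p = 0.0055). REG1, a regulatory subunit of the Glc7 phosphatase, rose by 0.21 ± 0.0465 (0.00521). In the deletant response alone 1 of the 15 passed, and rose (3.56% of all genes). After LoaOOH 2 of the 15 passed in each mutant against wild type, 1 higher and 1 lower (10.4% and 7.38% of all genes). SCS2, whose product tethers Opi1 to the endoplasmic reticulum, lies on chromosome V and was higher by 0.59 ± 0.0484 in deletant controls (7.16e-07) and by 0.55 ± 0.0484 in C404A controls (2.18e-06), below the chromosome V medians of 0.76 and 0.70. In the deletant, with both conditions averaged, 5 of the 15 passed (22.6% of all genes), SCS2 and 4 that were lower, the chromatin remodeller gene INO80 at -0.28 (0.00361), the repressor gene UME6 at -0.27 (0.0138), MOT3 at -0.26 (0.0254) and IRE1, the sensor of the unfolded protein response, at -0.24 (0.0148). With C404A 5 passed as well (23.1% of all genes), SCS2 and 4 that were lower, MOT3, SIN3, UME6 and REG1, at -0.29 to -0.19. Without the arrays labelled C404A replicate 2, the C404A count of this list in either direction went from 5 to 1. The share of all genes in that fit is not given here, so the drop is not read as a result about the list. HAC1, the transcription factor gene of the unfolded protein response, had group means of 12.80 to 12.99 and passed in no comparison.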

How the data were processed

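Affymetrix Expression Console with the PLIER algorithm gave the deposited values, according to the notes per the labels, as 1 column for each of 18 arrays (0 columns left out). The unit was taken as log2 from the range of the deposited values (2.47 to 15.0). The sources used here give no version, no PLIER setting and no step that scaled arrays to each other. Of 10928 probe sets, 5498 were assigned to 1 S. cerevisiae gene by the platform annotation. For 47 genes with several, one without a suffix letter came first, then the brightest. This left 5449 genes, with no filter. Background was 4.52, the 95th percentile over 1746 probe sets for a second species on the array. Chromosomes come from the R64 assembly. Array medians over the genes differed by 0.0771, so no further normalization was applied.

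Comparisons were contrasts of 6 group means, fitted once to all 18 arrays by limma 3.58.1 in R 4.3.3, with moderated two-sided tests and Benjamini-Hochberg adjustment over all 5449 genes at 0.05. Errors and 95% intervals come from this model (14.76 degrees of freedom, 12 of them residual). The number of arrays limits the precision. Genes named in the text are the 10 given genes, the 5 genes most correlated with INO1 and called genes of the 3 lists. Of the called genes up to 6 per list and comparison were taken, largest first, and some are given as counts only. A few uncalled genes of the lists (HNM1 and HAC1) were chosen after their values were seen. The 10 genes and the lists were chosen with earlier results of these data known. GPC1, on a list, was not matched by name and is not analysed here.

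In wild type, control and LoaOOH arrays of the same number deviated together from their group means at r = 0.502 to 0.856. For different numbers r was -0.673 to 0.199. Deviations from a mean of 3 arrays sum to 0, so this contrast is partly built in. Arrays of the same number had r of 0.055 to 0.264 in the deletant and 0.115 to 0.605 in the C404A mutant. With genotype and replicate number as a random block (correlation 0.391), OPI3 and INO2 passed in the wild type response (limma adjusted p = 0.033 and 0.014), and INO1 had 0.056. Over all genes 696 passed in the wild type response with this block, against 14 without it. In the C404A response none of the 10 passed.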

Additional observations from a re-analysis of the deposited data

Results flagged for a closer look

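OPI1 was the only one of the 10 genes whose same-number pairs all moved one way in one genotype and the other way in another. After LoaOOH it was lower in the 3 deletant pairs, at -0.13, -0.36 and -0.03, and higher in the 3 C404A pairs, at 0.06, 0.06 and 0.20. The second of these is the pair labelled C404A replicate 2, which did not show the LoaOOH response of the other pairs, and without it 2 C404A pairs are left. The C404A response of OPI1 is then 0.13 ± 0.188 (limma adjusted p = 0.777). The mean response of the C404A mutant exceeded that of the deletant by 0.28 on the log2 scale. This difference between the mutants was not tested, and OPI1 passed in neither response. The rule was applied to each of the 10 genes in each pair of genotypes. How often genes outside the 10 meet it was not counted, so the flag has no background share.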

How the results depend on the processing

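Over 140 values, 10 genes in 14 comparisons, 29 alternatives gave 4060 recomputed values. Of these 3995 kept their side of the threshold and, where called, their direction, 27 lost and 32 gained a call, and 6 turned. Most of the 140 values were uncalled to begin with, so the 3995 say little on the called ones. The deletant responses of INO1 and OPI3 kept their call under 20 and 16 of 29 alternatives. The deletant difference of INO1 kept it under 25 for untreated cells and 28 averaged, and each CHO1 call under 28. The mean responses of INO1, OPI3 and INO2 were called under all 29 alternatives (INO1 from 1.39 to 2.09).

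The turned values are CHO1 against wild type with the chromosome V shift removed. They were -0.11 (deletant, control), -0.0542 (C404A, control), -0.23 (deletant, LoaOOH) and -0.0429 (C404A, LoaOOH). Averaged over both conditions they were -0.17 and -0.0485. CHO1 lay below the chromosome V median in each of these comparisons, so the signs follow from removing that shift. The count of the 10 genes called fell there from 2 to 1 for the deletant in control cells and averaged, from 1 to 0 for the deletant after LoaOOH, and from 1 to 0 for the C404A mutant in control cells, after LoaOOH and averaged.

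For the wild type response the count of the 10 genes went from 0 to 2 with array weights. It went to 2 as well with genotype and replicate number as a random replicate block. The count over all genes went from 14 to 1231 with array weights and to 696 with this block. For the deletant response the count of the 10 genes went from 2 to 0 with replicate number as a block. The same held with the prefix of the sample description (CT for replicates 1 and 2, JC for replicate 3) as a term, and in the CT arrays alone. The count over all genes went from 194 to 0 in each of these fits. INO1 there had adjusted p = 0.0547, 0.0503 and 0.135 (limma). For the mean response the count of the 10 genes went from 3 to 5 with an intensity trend and to 5 with the random block. The added genes were CHO1 and CHO2. Over all genes the count went from 1147 to 1199 and to 1910. For the deletant averaged over both conditions the count of the 10 genes went from 2 to 1 with the random block, as INO1 had adjusted p = 0.0555. That of all genes went from 1232 to 836. The block changed no other count of the 10 genes by over 1.5 times.

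Arrays were also left out, 1 at a time or both of C404A replicate 2. The counts of the 10 genes then ran from 0 to 3 for the wild type and 0 to 2 for the deletant response. They ran from 0 to 2 for the C404A and 3 to 5 for the mean response, and from 1 to 2 for the untreated deletant. In the same order, the counts over all genes ran from 0 to 479, 0 to 535, 0 to 217, 867 to 1569 and 361 to 620. The cause of these changes was not tested, and such fits also hold fewer arrays.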
